A study of Mus musculus with 6 samples.

Results

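Genes of fat cells were measured in colon mucosa of mice that lack microRNA-21 (miR-21 KO) and of wild type (WT) mice. The 10 genes were the adipocyte genes Adipoq, Cfd, Lep, Retn, Plin4, Cidec, Lpl, Fabp4, Thrsp and Car3, found by their symbols in the probe table, where Plin4 carries its older symbol S3-12. Each had 1 probe, so they made up 10 of the 18002 genes with a symbol. The KO group was 3 samples of untreated miR-21-/- mice on a C57BL/6 background, which came from another laboratory and are labelled as free of spontaneous colitis. The WT group was 3 samples of untreated C57BL/6 mice from Taconic. All KO mice had one source and all WT mice another, so genotype and source of the mice cannot be told apart in any difference given here. The age and sex of the mice and the number of animals behind a sample are not given in the sources used here, so p-values here reflect the variation from sample to sample, some of which may be technical. Total RNA of each sample was hybridised to 1 single-colour (Cy3) bead array.

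White adipocytes store triglyceride in 1 large lipid droplet and secrete hormones such as adiponectin and leptin. Along the mouse colon they lie mainly in the mesenteric fat attached to the outside of the gut wall, beyond the muscle layers, while the mucosa is made of epithelium, lamina propria and a thin muscle layer. Apart from Car3, which encodes an abundant cytosolic protein of white fat, the members describe 4 tasks of these cells. They are secretion (Adipoq, Lep, Cfd and Retn), the coat and fusion of lipid droplets (Plin4 and Cidec), the uptake and intracellular transport of fatty acids (Lpl and Fabp4) and lipogenic metabolism (Thrsp). MicroRNA-21, the deleted gene, is a small RNA that lowers its target messenger RNAs by pairing through its seed, bases 2 to 8. The array has no probe for it, so the deletion itself was not checked here. Its 5p strand, from RefSeq (GRCm38.p6, chr11:86584120-86584141, minus strand), is shown with the seed in capitals because its loss defines the KO group.
mmu-miR-21a-5p: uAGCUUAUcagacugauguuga

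Promoters from RefSeq matched 7 of the 10 members (8 windows, GRCm38.p6), of which those of the 2 best known adipocyte hormones are shown, as the 250 bases before the start, 5′ to 3′ on the gene's strand. They were searched on both strands for 4 motifs. TTGCNNAA, a form of the C/EBP site, occurred in 2 of the 8 member windows, those of Lep and Cidec, and in 9.56% of all 32851 promoter windows. CCAAT occurred in 3 of 8, those of Adipoq, Thrsp and Plin4, and in 33.8% of all windows. TATAAA was in 0 of 8, against 12.4% of all windows, and AGGTCANAGGTCA, the direct repeat bound by PPARγ with RXR, was in 0 of 8, against 0.0335%. The matches are a description of these letters in these windows. Capitals mark the CCAAT matches on either strand in Adipoq (chr16:23146286-23146535, plus strand) and the TTGCNNAA match, the same on both strands, at bases -55 to -48 in Lep (chr6:29059971-29060220, plus strand). No searched motif overlapped another within these matches.
Adipoq promoter: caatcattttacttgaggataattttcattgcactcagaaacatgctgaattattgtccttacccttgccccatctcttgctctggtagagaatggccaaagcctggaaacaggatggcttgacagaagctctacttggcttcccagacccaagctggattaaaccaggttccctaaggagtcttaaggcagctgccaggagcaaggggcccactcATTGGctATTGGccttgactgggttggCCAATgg
Lep promoter: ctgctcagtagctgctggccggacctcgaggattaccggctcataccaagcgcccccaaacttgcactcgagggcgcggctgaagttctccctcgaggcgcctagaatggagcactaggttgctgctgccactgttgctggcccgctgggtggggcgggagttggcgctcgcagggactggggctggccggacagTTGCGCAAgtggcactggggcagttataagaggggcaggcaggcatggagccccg

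Mean intensity per array was 299.7 to 380.0 in KO and 292 to 438 in WT samples, with medians close to the undetected probes (98.3 to 109.3 in KO and 97 to 115 in WT), and 53.9 to 54.6% of probes detected (detection p under 0.05) in KO against 50.4 to 52.3% in WT. KO replicate 3 (mean intensity 299.7) and WT replicate 3 (292) were the dimmest arrays. All 11 epithelial marker genes with a probe were tested, and their summed level per array (linear scale after normalization) was 48354 to 50714 in KO and 49173 to 51832 in WT samples. Smooth muscle markers were measurable too, with a sum of 39437 to 55980 in KO and 21934 to 42015 in WT samples. Levels below are normalized log2 intensities, to which an offset of 16 was added before the log, so fold changes of dim probes are understated. Differences are miR-21 KO minus WT from limma, with a standard error and a Benjamini-Hochberg adjusted p over 13737 probes, and "rose" and "fell" mean an adjusted p under 0.05. With 3 arrays against 3, an exact permutation test of a single gene cannot go below p = 0.1.

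Of the 10 adipocyte genes, 8 were detected on enough arrays (at least 3 of 6) to be tested, and all 8 of these rose in KO mucosa, by 3.42-fold for Lep to 20.0-fold for Cfd. Retn and Fabp4 were at or near background. Of all 10380 genes tested, 8.05% rose and 7.62% fell (15.1% of probes passed in either direction). Higher genes made up 51.4% of the genes called, and 38.8% when the arrays were scaled by their medians in place of quantile normalization; the members' median difference was 2.67 and 2.61 under these settings. Every KO array lay above every WT array for the 8 members, as it did for 20.2% of all genes tested. A gene high in KO could pass the detection filter through the KO arrays alone, and Lep, Cidec, Car3 and Thrsp were missed on 1 or 2 of the 3 WT arrays, so these counts describe the members and do not test them. In a fit without that filter, which took in all 10, 2 passed (Lep and Plin4; 3.47% of all 18002 genes rose in that fit), and the median log2 difference of the 10 was 2.32, against 0.0022 over all genes. The tissue was measured in bulk, so a change in the number of fat cells and a change in RNA per fat cell cannot be told apart.

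**Figure D1:**
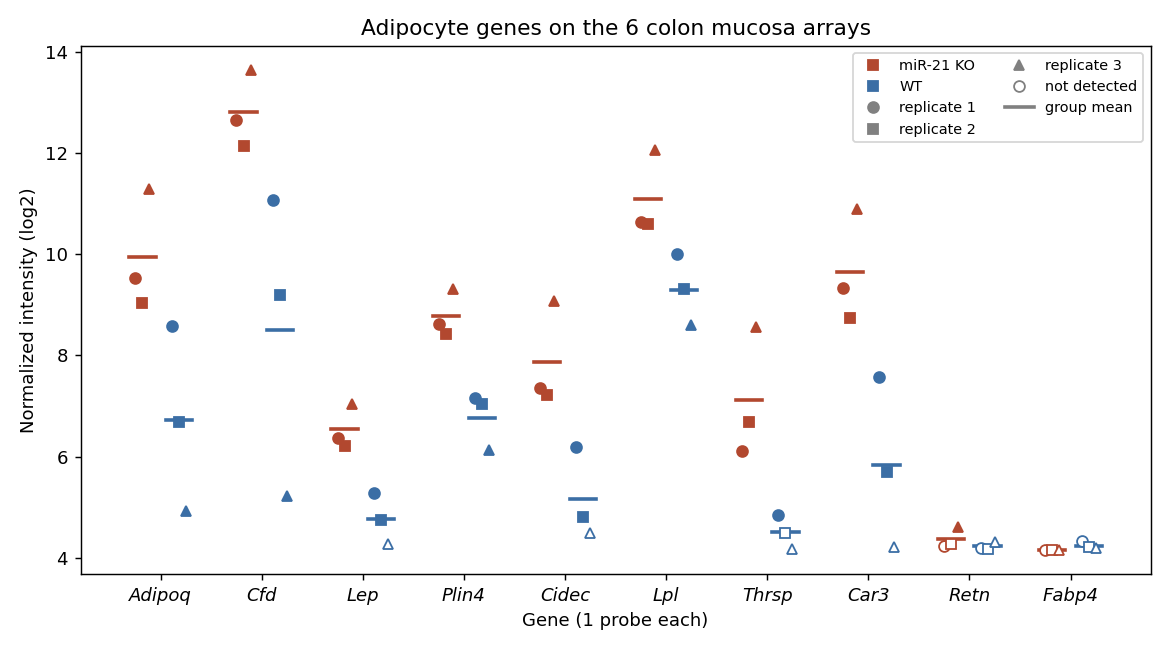
Normalized log2 intensity (y axis) of the 10 adipocyte genes (x axis) on each array, miR-21 KO in red on the left and WT in blue on the right of each gene. Symbols mark the replicate, open symbols a probe that was not detected on that array, and lines the group mean. The KO points lie above the WT points in the 8 genes tested, while Retn and Fabp4 sit near 4 on all 6 arrays.

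Adipoq encodes adiponectin, a hormone made almost exclusively by adipocytes. Its probe (ILMN_2738082, chromosome 16) read 9.54, 9.03 and 11.30 in KO replicates 1 to 3, and 8.58, 6.68 and 4.91 in WT replicates 1 to 3. The groups did not overlap, but the gap between the lowest KO and the highest WT array was 0.45, and WT replicate 1 was closer to KO replicate 2 than to any other WT sample. Untransformed, the intensity was 665.2 to 1978.4 in KO and 99.7 to 497.5 in WT samples. The difference was 3.23 ± 0.84 (adjusted p = 0.0332), 9.38-fold higher in KO. It passed with WT replicate 1 left out (4.16, adjusted p = 0.0173) and not with any other single array left out (2.32 to 3.69, adjusted p = 0.0605 to 0.0857), with the lowest values without WT replicate 3 (2.32) and KO replicate 3 (2.56).

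Cfd encodes adipsin, the complement factor D protease that cleaves factor B to start the alternative pathway and is secreted mainly by fat cells in the mouse. Its probe (ILMN_2835423, chromosome 10) read 12.66, 12.14 and 13.65 in KO replicates 1 to 3, and 11.07, 9.20 and 5.21 in WT replicates 1 to 3. Each KO array was above each WT array, and the WT arrays were far more scattered: their values spanned 57.9-fold, against 2.84-fold in KO. WT replicate 3, with an untransformed intensity of 103.4 against 2459.6 in WT replicate 1, was barely above its array's median undetected probe (91.3). The difference was 4.32 ± 1.18 (adjusted p = 0.0387), 20.0-fold higher in KO. Without WT replicate 3 it was 2.68 and without WT replicate 1 it was 5.61, and both passed, while leaving out any KO array or WT replicate 2 gave 3.91 to 4.68 with adjusted p = 0.0506 to 0.0962.

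Lep encodes leptin, the hormone by which fat tissue reports its energy stores to the hypothalamus. Its probe (ILMN_2695964, chromosome 6) read 6.36, 6.20 and 7.04 in KO replicates 1 to 3, and 5.27, 4.75 and 4.27 in WT replicates 1 to 3, the last of which was not detected. The signal was dim throughout, at intensities of 165.3 to 178.1 in KO and 91.1 to 125.1 in WT samples, yet the groups were 0.93 apart at their nearest arrays. The difference was 1.77 ± 0.28 (adjusted p = 0.00750), 3.42-fold higher in KO. Leptin passed the test in all 16 alternative fits that included it, with differences of 0.63 to 2.03.

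Retn encodes resistin, which in rodents is secreted by adipocytes. Its probe (ILMN_2721016, chromosome 8) read 4.23, 4.28 and 4.60 in KO replicates 1 to 3, and 4.19, 4.17 and 4.32 in WT replicates 1 to 3. It was detected on KO replicate 3 alone, the array on which the other secreted members were highest. Retn was not tested, and without the filter its difference was 0.15 ± 0.12 (adjusted p = 0.598). A probe at background gives no level for the transcript in either group.

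Plin4 encodes perilipin 4, which coats small new lipid droplets. Its probe (ILMN_2588249, chromosome 17) read 8.63, 8.43 and 9.31 in KO replicates 1 to 3, and 7.15, 7.04 and 6.12 in WT replicates 1 to 3. It was detected on all 6 arrays, and the gap of 1.27 between the groups was larger than the range within KO (0.89) or WT (1.03). The difference was 2.02 ± 0.30 (adjusted p = 0.00646), 4.05-fold higher in KO, and it passed in all 17 alternative fits (1.38 to 2.21). Plin4 and Lep had the smallest adjusted p of the tested members.

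Cidec encodes the droplet protein FSP27, which fuses lipid droplets into the single large droplet of white fat cells. Its probe (ILMN_1222679, chromosome 6) read 7.35, 7.21 and 9.07 in KO replicates 1 to 3, and 6.19, 4.80 and 4.48 in WT replicates 1 to 3, the last of which was not detected. KO replicate 3 stood apart from the other KO arrays, and WT replicate 1 from the other WT arrays. The difference was 2.72 ± 0.54 (adjusted p = 0.0144), 6.60-fold higher in KO. Without WT replicate 3 it was 2.38 (adjusted p = 0.0539), and without KO replicate 3 it was 2.13 and passed.

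Lpl encodes lipoprotein lipase, which frees fatty acids from circulating triglyceride at the capillary wall and is also made in muscle and macrophages. Its probe (ILMN_2692723, chromosome 8) read 10.64, 10.60 and 12.06 in KO replicates 1 to 3, and 10.0001, 9.31 and 8.60 in WT replicates 1 to 3. It was well detected on all 6 arrays, with intensities of 1757.3 to 3348.2 in KO and 321.9 to 1215.8 in WT samples. The groups were 0.60 apart, less than the range within either group. The difference was 1.80 ± 0.43 (adjusted p = 0.0262), 3.47-fold higher in KO. It did not pass without KO replicate 2 (2.05, adjusted p = 0.0531) or without WT replicate 3 (1.44, adjusted p = 0.0827).

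Fabp4 encodes the fatty acid carrier aP2, an abundant protein of mature adipocytes that capillary endothelium and macrophages also make. Its probe (ILMN_2615947, chromosome 3) was detected on 0 of 6 arrays and read 4.15, 4.15 and 4.15 in KO replicates 1 to 3, and 4.32, 4.20 and 4.18 in WT replicates 1 to 3. Its intensity, 85.7 to 91.5 in KO and 87.9 to 102.9 in WT samples, was at that of undetected probes. The member most often used to mark fat cells thus gave no level in either group and did not bear out the label here. Without the filter the difference was -0.09 ± 0.06 (adjusted p = 0.574). Whether this probe reports the transcript was not tested.

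Thrsp encodes the nuclear protein Spot 14, which promotes lipogenic gene expression and responds to thyroid hormone and carbohydrate. Its probe (ILMN_1256775, chromosome 7) read 6.10, 6.69 and 8.57 in KO replicates 1 to 3, and 4.84, 4.49 and 4.18 in WT replicates 1 to 3, of which WT replicate 1 alone was detected. The WT arrays lay within 0.66 of one another near the background, and the KO arrays spanned 5.53-fold. The difference was 2.62 ± 0.52 (adjusted p = 0.0147), 6.14-fold higher in KO, and without WT replicate 3 it was 2.45 (adjusted p = 0.0549). Leaving out KO replicate 3 gave 1.89, which passed.

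Car3 encodes carbonic anhydrase III, an abundant cytosolic protein of white fat, liver and slow muscle. Its probe (ILMN_2630047, chromosome 3) read 9.34, 8.75 and 10.89 in KO replicates 1 to 3, and 7.58, 5.69 and 4.21 in WT replicates 1 to 3, the last of which was not detected. The KO values spanned 4.42-fold, with a gap of 1.17 between the groups, and WT replicate 3 was at background. The difference was 3.83 ± 0.77 (adjusted p = 0.0155), 14.2-fold higher in KO. It passed with each single array left out, at 3.21 without KO replicate 3, 4.70 without WT replicate 1 and 3.02 without WT replicate 3. With both replicate 3 arrays left out, the difference of Car3 was 2.41 (adjusted p = 0.0586).

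**Figure D2:**
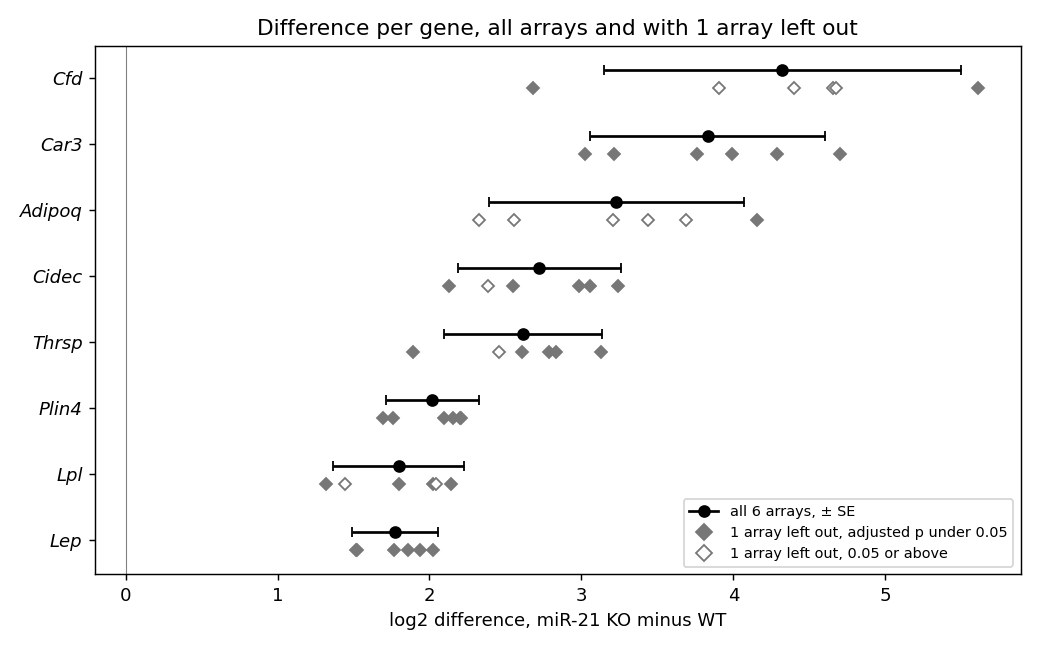
Log2 difference, miR-21 KO minus WT (x axis), of the 8 tested adipocyte genes (rows). Black points are the fit of all 6 arrays with bars of ± 1 SE, and grey diamonds the fits with 1 array left out, filled where the adjusted p stayed under 0.05. All diamonds lie above 0, and those of Plin4, Lep and Car3 are filled throughout, whereas 5 of the 6 of Adipoq are open.

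The members did not only differ between the groups but also varied in step within them. In WT, replicate 1 was the highest and replicate 3 the lowest for 8 of 8 tested members, an order found in 14.1% of all genes tested. These orders are of normalized values. The untransformed Plin4 intensity was 248.3 in WT replicate 2 and 233.1 in WT replicate 1. WT replicate 3 was undetected for Lep, Cidec, Car3 and Thrsp. WT replicate 2 was undetected for Thrsp too, so the order of these 2 arrays there lies within background. In KO, replicate 3 was the highest for 8 of 8, against 37.5% of genes, and replicate 2 the lowest for 7 of 8, the exception being Thrsp, against 14.6%. Untransformed, Lep read 176.5 in KO replicate 3 and 178.1 in KO replicate 1. The WT order together with KO replicate 3 as the highest KO array was found in 5.01% of genes. Averaged over the 8 members after centring each on its mean, the profile was 0.99, 0.79 and 2.40 in KO replicates 1 to 3, and -0.25, -1.34 and -2.59 in WT replicates 1 to 3. On this profile KO replicate 2 and WT replicate 1 were nearer to each other than WT replicate 1 was to WT replicate 3.

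The scatter within groups was several times that of other genes. The median pooled SD within groups was 0.957 on the log2 scale over the 8 members and 0.196 over all genes tested. In WT, 7 of 8 members spanned more than 1 log2 unit, with undetected arrays taken at their value, Thrsp being the exception, against 3.82% of genes. The within-group deviations of the members correlated at r = 0.436 to 0.999 over the 28 pairs of members, with a median of 0.921. These correlations are over the same 6 arrays and describe them only. The bead standard error of the tested members was 1.68 to 4.84% of the intensity, background included, on 23 to 48 beads. WT replicate 3 was the lowest and KO replicate 3 the highest of all arrays for 8 of 8 members, against 22.8% and 17% of genes, and they were also the 2 dimmest arrays before normalization. With both left out, 3 of the 8 members passed (Lep, Plin4 and Thrsp), against 2.84% of all genes higher, and the members' median difference was 1.69, against 2.67 on all arrays.

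**Figure D3:**
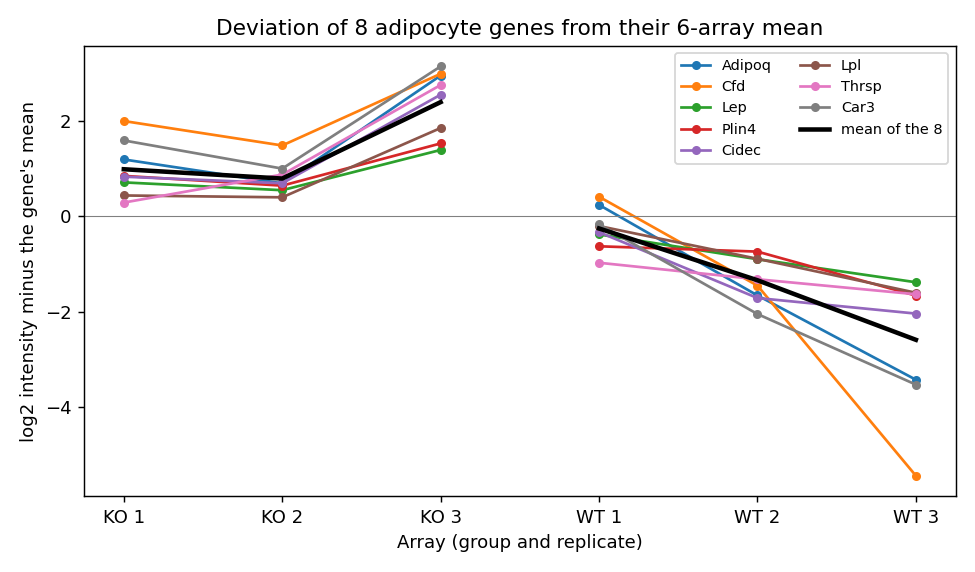
Deviation of each of the 8 tested adipocyte genes from its own mean over the 6 arrays (y axis, log2), for KO and WT replicates (x axis). Coloured lines join the arrays of a group for 1 gene and the black line is the mean of the 8. The genes move together, highest on KO replicate 3 and lowest on WT replicate 3, and Cfd drops farthest on the last.

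Other genes known from fat cells were read beside the members. Of 20 other adipocyte-enriched genes, 14 were tested, 7 rose and 0 fell, with a median log2 difference of 0.76, against 0.03 over all genes tested. Cyp2e1, a cytochrome P450 of liver and fat, rose by 3.28 ± 0.73 (adjusted p = 0.0203), and Pon1, the paraoxonase of high-density lipoprotein, by 2.28 ± 0.45 (adjusted p = 0.0147), both detected on 2 of 3 WT arrays. Adig, which encodes adipogenin and was found on WT replicate 1 alone among WT arrays, rose by 1.86 ± 0.49 (adjusted p = 0.0350), and Acvr1c, the activin receptor ALK7 of adipocytes, by 1.32 ± 0.18 (adjusted p = 0.00483). The amine oxidase gene Aoc3, shared by fat and vascular smooth muscle, rose by 1.25 ± 0.21, and the adipocyte lipid hydrolase gene Ces1d by 1.03 ± 0.25. Cav1, a caveolae component (0.51 ± 0.20, adjusted p = 0.119), and Acsm3 (-0.42 ± 0.18, adjusted p = 0.141) did not pass.

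Of 12 listed transcription factors of adipocytes, not all of them specific to fat cells, 8 were tested, and 0 rose or fell, with a median of -0.02. Pparg, the master regulator of adipogenesis, read 8.98, 8.91 and 9.19 in KO replicates 1 to 3, and 9.01, 8.52 and 8.36 in WT replicates 1 to 3. The groups overlapped (0.40 ± 0.19, adjusted p = 0.176). Its WT order and its highest KO array were those of the members, a pattern of 5.01% of genes. A second tested probe of Pparg did not pass either (0.46 ± 0.18, adjusted p = 0.108). On that probe each KO array lay above each WT array, and KO replicate 1 was the highest. Colon epithelium also expresses Pparg. Cebpb differed by 0.39 ± 0.15 (adjusted p = 0.0986). Cebpa, named after its values were seen for its role in terminal differentiation, was near background on all 6 arrays (-0.15 ± 0.22, adjusted p = 0.673).

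Among genes of lipid droplets and lipolysis, 3 of the 10 tested rose and 0 fell, with a median of 0.32. G0s2, an inhibitor of adipose triglyceride lipase, rose by 1.27 ± 0.36 (adjusted p = 0.0435). Mgll, the monoglyceride lipase, rose by 1.16 ± 0.23 (adjusted p = 0.0150), and its other 2 tested probes passed in the same direction. Bscl2, which encodes the droplet-forming protein seipin, rose by 0.63 ± 0.18 (adjusted p = 0.0447). Pnpla2, the adipose triglyceride lipase itself (0.32 ± 0.21, adjusted p = 0.335), and Cideb (-0.32 ± 0.22, adjusted p = 0.347) did not pass. Plin1, the perilipin of the mature white fat droplet, was detected on 2 of 3 KO and 0 of 3 WT arrays and was not tested. Plin2 differed the other way, by -0.55 ± 0.16 (adjusted p = 0.0502), with each KO array below each WT array. Plin1 and Plin2 were chosen after their values were seen.

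Of the 8 tested genes for fatty acid uptake and triglyceride synthesis, 2 rose and 1 fell, with a median of 0.47. Acsl1, which activates fatty acids with coenzyme A, rose by 1.04 ± 0.19 (adjusted p = 0.0116), and Gpd1, which makes glycerol 3-phosphate, by 0.80 ± 0.23 (adjusted p = 0.0454, with 1 WT array above background). Fabp5, the epidermal fatty acid carrier, was below the detection limit in each KO sample, and its level there was at least 1.80-fold lower (adjusted p = 0.0374). Agpat2 and Dgat2, enzymes of triglyceride assembly, differed by 0.38 ± 0.16 and 0.47 ± 0.33 and did not pass. Cd36, a fatty acid transporter of adipocytes, was detected on no array. Of the 7 tested genes of fatty acid synthesis 3 rose and 0 fell, with a median of 0.55. The desaturase genes Scd1 and Scd2 rose by 1.63 ± 0.31 (adjusted p = 0.0134) and 1.07 ± 0.16 (adjusted p = 0.00646), and the acetyl-CoA synthetase gene Acss2 by 1.11 ± 0.20 (adjusted p = 0.0113). A second tested probe of Acss2 did not pass (0.12 ± 0.17, adjusted p = 0.647). Acly (0.29 ± 0.15) and Elovl6 (0.27 ± 0.19) did not pass. In the insulin response list 0 of 4 tested genes passed, among them Irs2 (-0.05 ± 0.25, adjusted p = 0.926).

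Of the receptors and partners of the members, 2 of 10 tested rose and 0 fell, with a median of 0.06. Cdh13, the T-cadherin that binds adiponectin on vessel walls, read 6.07, 6.03 and 6.12 in KO replicates 1 to 3, and 4.97, 5.20 and 4.98 in WT replicates 1 to 3, a difference of 1.02 ± 0.14 (adjusted p = 0.00400). A second tested probe of Cdh13, detected in KO samples alone, did not pass. Angptl4, a secreted inhibitor of lipoprotein lipase, rose by 1.22 ± 0.33 (adjusted p = 0.0393). The adiponectin receptor gene Adipor1 differed by 0.02 ± 0.16 and C3, the complement protein downstream of factor D, by -0.45 ± 0.35. Chosen after their values were seen, Adipor2 differed by 0.11 ± 0.13, the factor D substrate Cfb by -0.49 ± 0.23, and Gpihbp1 and Lmf1, which anchor and fold lipoprotein lipase, by 0.47 ± 0.19 and 0.47 ± 0.15, none of them passing. The leptin receptor gene Lepr was detected on no array.

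Likeness was measured as the root mean square log2 difference from the mean centred profile of the 8 members over the 6 arrays. Genes with clone names were left out of the ranking. The nearest gene outside the members was Pon1 (0.394), followed by Cyp2e1 (0.394), Hp (0.570), Adig (0.640), Glb1l2 (0.732), Erdr1 (0.735), Orm1 (0.775), Itlnb (0.794), Scd1 (0.806) and Rgs5 (0.833). The members themselves lay between 0.291 for Cidec and 1.32 for Cfd. Hp encodes haptoglobin and Orm1 the orosomucoid, plasma proteins of liver and fat. Hp read 6.25, 6.29 and 8.33 in KO replicates 1 to 3, and 5.52, 4.95 and 4.42 in WT replicates 1 to 3, with the same highest and lowest arrays as the members. Since genes were ranked by likeness to a profile that is higher in KO, their differences are a consequence of that choice and are not tested here. Not all of these genes shared the members' order. Within KO, replicate 1 was the highest for Rgs5, a pericyte gene (9.30, 9.25 and 8.74), and for Erdr1 (7.20, 6.72 and 6.86). Within WT, replicate 2 was the highest for Rgs5 (6.75) and, by a small margin, the lowest for Scd1 (9.228, against 9.231 in WT replicate 3).

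Markers of other cells that a piece of colon could hold were read on the same arrays. Brown and beige adipocyte markers had 0 of 3 tested genes passing, with a median of -0.40, and the defining genes Ucp1, Dio2, Elovl3 and Prdm16 were detected on no array. Of the 3 tested, Ppargc1a differed by -0.64 ± 0.22 (adjusted p = 0.0751) and Cox7a1 by -0.40 ± 0.15 (adjusted p = 0.0928). The third, Cox8b, differed the other way, by 0.65 ± 0.44 (adjusted p = 0.344), and was highest on KO replicate 3 (8.66). Cidea was detected on 1 KO and 1 WT array and was not tested. Cox8b and Cidea were chosen after their values were seen. Preadipocyte and adipose stroma markers had 2 of 9 tested genes higher and 1 lower: the basement membrane collagen gene Col15a1 rose by 1.60 ± 0.23 and the fibroblast gene Pi16 by 0.86 ± 0.25, whereas Ly6a fell by 0.77 on the log2 scale (adjusted p = 0.0203). The brightest of this list that did not pass were Pdgfra (0.18 ± 0.16) and Dpp4 (-0.16 ± 0.19).

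Mesothelium, the sheet that covers the outer surface of the gut and the mesentery, was followed through 5 tested markers, of which 0 passed, with a median of -0.50. Upk3b read 6.83, 6.39 and 8.56 in KO replicates 1 to 3, and 7.89, 7.68 and 8.17 in WT replicates 1 to 3. The difference was -0.65 ± 0.46, and Upk1b differed by -0.50 ± 0.39. The summed level of the list was 159 to 649 in KO and 338 to 535 in WT samples. The mean centred level of the list was -0.63, -0.63 and 0.62 in KO replicates 1 to 3, and 0.26, -0.11 and 0.50 in WT replicates 1 to 3. The mean of the list was thus highest on KO replicate 3, as the members were, but high also on WT replicate 3, where the members were lowest. Msln, chosen after its values were seen, was higher on WT replicate 3 (6.45) than on KO replicate 3 (6.17). The part of mesothelium-covered tissue in the members' differences was not tested.

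Smooth muscle markers had 1 of 9 tested genes higher (Cnn1, 0.82 ± 0.18, adjusted p = 0.0208) and a median of 0.76, while the brightest, Acta2 (0.54 ± 0.22) and Actg2 (0.71 ± 0.28), did not pass. Their mean centred level was 0.44, 0.56 and 0.01 in KO replicates 1 to 3, and -0.82, 0.09 and -0.28 in WT replicates 1 to 3. Within KO, they were thus lowest on the array where the members were highest, and within WT lowest on the array where the members were highest. Endothelial markers rose in 6 of 9 tested genes, with a median of 0.73, among them Egfl7 (1.59 ± 0.17), Cldn5 (1.24 ± 0.20), Flt1 (1.02 ± 0.18) and Eng (0.74 ± 0.17). Esam (0.73 ± 0.21) and Pecam1 (0.61 ± 0.16) also rose, and Emcn and Tek did not pass. Of 2 other tested probes of Egfl7, 1 rose (0.90 ± 0.17, adjusted p = 0.0134) and 1 did not pass (-0.17 ± 0.19), and another probe of Pecam1 did not pass (0.20 ± 0.17). The summed endothelial level was 992 to 1333 in KO and 542 to 743 in WT samples. For the 10 members, the untested Retn and Fabp4 included, it was 7583 to 23089 in KO and 481 to 3908 in WT samples.

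The remaining lists moved less or in other ways. Lymphatic endothelial markers had 0 of 3 tested genes higher and skeletal muscle markers 1 of 5 (Myh2, 0.79 ± 0.22), with Myh1, Myh4, Tnnc2 and Atp2a1 detected on no array. Of the 3 tested liver markers, Trf (1.32 ± 0.25) and Ttr (0.66 ± 0.16) rose, and the liver-defining genes Alb, Fgb and Ahsg were detected on no array. Epithelial markers had Krt18 higher (0.62 ± 0.17) and Vil1 and Krt20 lower (-1.15 ± 0.17 and -0.63 ± 0.13) among 11 tested, with a median of 0.07. Macrophage markers, from cells that also express Lpl, had 0 of 9 higher and 1 lower (Mrc1, -0.78 ± 0.18), and a summed level of 3915 to 5696 in KO and 5352 to 10898 in WT samples. All 4 tested B cell markers fell, with a median of -2.49. The WT order of the list's summed level, untested genes included (2904, 549 and 1079 in WT replicates 1 to 3), differed from that of the adipocyte genes. The part of any of these cell types in the members' differences was not tested.

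**Figure D4:**
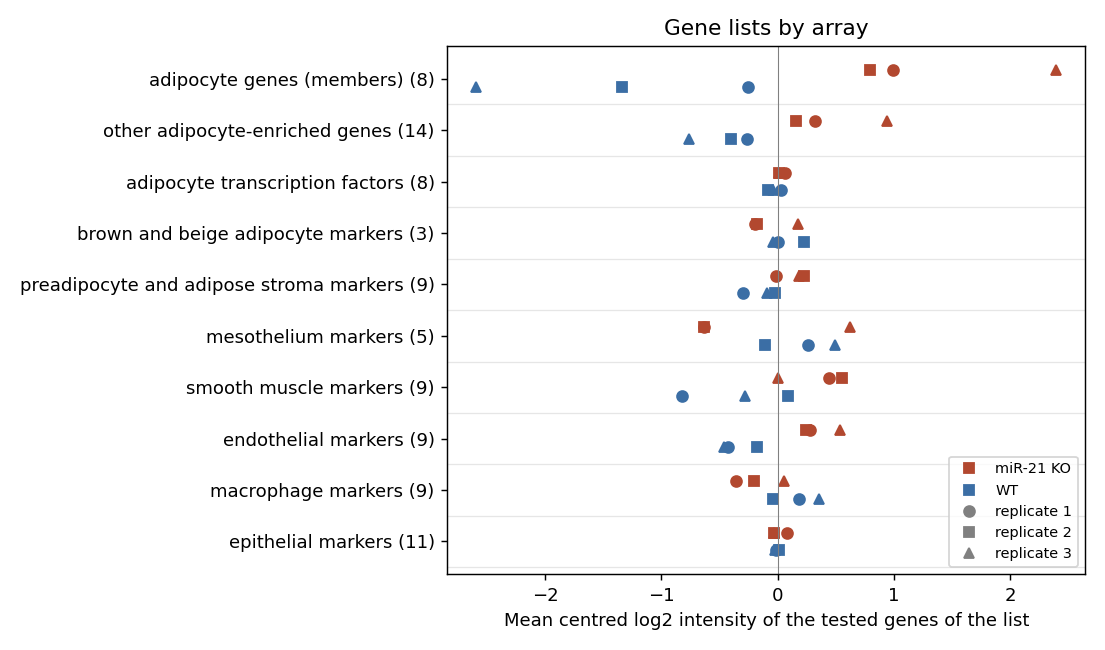
Mean log2 intensity of each marker list after centring every gene on its mean over the 6 arrays (x axis), with the number of tested genes in brackets. Each row has the KO arrays (red) above the WT arrays (blue), and symbols mark replicates. The adipocyte genes spread from -2.59 on WT replicate 3 to 2.40 on KO replicate 3, and the other lists shown span less.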

How the data were processed

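For each of 25697 probes and 6 arrays the authors deposited an intensity, the mean over beads per the file headers (linear, not normalized between arrays), a detection p-value against the array's negative control beads, a bead standard error and a bead number. A second deposited table holds log2 values normalized by the authors for 18010 of the probes. The normalization behind them has no description in these sources; they correlated at r of at least 0.999895 with the values computed here (median difference 0.042 to 0.044), which settled their scale and direction. The submitters' processing notes name limma without a version or role.

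The neqc function of limma (version 3.58.1, with R 4.3.3 and statmod 1.5.0) was applied to the intensities, with a normexp correction that takes the background from the detection p-values, quantile normalization, offset 16 and log2. Probes with a detection p under 0.05 on at least 3 of 6 arrays (13737 probes, 10380 genes) were fitted with lmFit and eBayes, KO minus WT, all 6 arrays, no covariate, and adjusted by Benjamini-Hochberg over all tested probes. A gene was represented by its brightest tested probe. The code was tested on simulated data. Where no array of a group detected a probe, its fold is a bound against the lowest detected signal of each array or its own value, whichever is higher. Symbols were updated through RefSeq tables (GRCm38.p6) with the Entrez ID (23788 probes) or else the accession (685), and 1224 kept the file's symbol. Sequences are from RefSeq (GRCm38.p6), and the files name no build.

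The members and the marker lists were chosen with earlier results of these data known. By rule, all members were named, and from each list up to 6 genes past the threshold by size and the 2 brightest that did not pass. The rule also named the 10 genes nearest to the members' mean profile, clone names left out. Genes outside this rule are said to be chosen after their values were seen, and undetected genes are named from the lists. A few genes that the rule names are not reported here. Alternatives changed the background correction, normalization, dim-probe filter, offset, probe rule, array weights, source of values, replicate block and each single array. The number of arrays limits the precision.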

Additional observations from a re-analysis of the deposited data

How the results depend on the processing

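In the fit of all arrays 2071 probes, 8 members and 40 listed genes passed. Median scaling gave 536 probes and 26 listed genes, with all 8 members still passing, and array weights gave 3772 probes (the weight of KO replicate 2 was 3.66 and that of KO replicate 3 was 0.580). Without background correction 3 members passed (Car3, Lep and Plin4), and without the filter on dim probes 2 members (Lep and Plin4) and 18 listed genes did, with 18002 genes in that fit. Requiring detection on all 6 arrays left 4 members to test, and all 4 passed. Among all genes, 8.05% rose in the fit of all arrays, 1.53% with median scaling and 15.2% with array weights. The share was 8.07% without background correction, 3.47% without the filter and 9.16% with detection required on all 6 arrays. Leaving out both replicate 3 arrays, an alternative added after seeing the data, gave 839 probes, 3 members and 17 listed genes. In that fit 2.84% of all genes rose. Leaving out each array in turn gave 460 to 2116 probes, 4 to 8 members and 17 to 45 listed genes, while 1.75 to 8.4% of all genes rose. The fewest members passed without WT replicate 3, and the fewest probes and listed genes without KO replicate 2. Cyclic loess, an offset of 50, the mean of a gene's tested probes and the authors' deposited table each kept all 8 members past the threshold. Under these settings 7.28 to 8.84% of all genes rose. The probe rule does not bear on the count of probes. The cause of these changes was not tested, apart from the fewer arrays or probes that some settings construct. No difference of a named gene past the threshold turned its direction under any alternative run. An offset of 50 lowered the members' median difference to 1.83, and no background correction to 1.51, so the folds of dim members depend on these settings.

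Of the 17 alternatives (16 where an array missed the gene), the call was lost in 8 for Adipoq, 7 for Cfd, 5 for Lpl, 4 for Cidec, 3 for Thrsp, 2 for Car3 and 0 for Lep and Plin4. Among listed genes it was lost in 12 for Gpd1, Esam and Pecam1, in 11 for Pi16 and Myh2, in 10 for Fabp5, in 9 for G0s2, Bscl2, Angptl4 and Krt18, in 8 for Ces1d, in 7 for Adig, in 6 for Eng, Mrc1, Ttr and Cd79b, and in 5 or fewer for the others named.

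Both groups carry replicate numbers 1 to 3. The deviations of samples with the same number correlated at 0.0069, 0.155 and 0.0558, so the numbers were not taken as pairs. With the replicate block 2154 probes, 8 members and 41 listed genes passed, and 8.19% of all genes rose.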

Other observations

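All 6 samples had the Y-linked gene Ddx3y detected by its brightest probe, at 10.15, 10.30 and 10.09 in KO replicates 1 to 3 and 9.65, 10.45 and 9.24 in WT replicates 1 to 3 (log2). The other probes of Ddx3y were detected on 0 of 6 arrays. Both probes of Xist, the RNA of the inactive X chromosome, were detected on 0 of 6 arrays. These genes were chosen after their values were seen.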
